A study of Arabidopsis thaliana with 12 samples.

Results

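The ssi2 single mutant of Arabidopsis thaliana was compared with wild type Col-0 in leaves, across all 22746 non-control probe sets of an Affymetrix array. The comparison rests on 3 arrays of ssi2 and 3 of wild type, out of 12 arrays in all. The other arrays come from the ssi2 act1 and ssi2 sid2 double mutants, 3 of each. They served to estimate the spread between replicates, and their values are given only for ECS1 and some control probe sets. Leaves of all 4 genotypes were labelled as 4 weeks old, and the plants were grown at 22 °C, 65% relative humidity and a day of 14 h. The labels give Col-0 as the genetic background of the mutants as well, and every mutant array carries the ssi2 mutation. The sample titles call the arrays of each genotype biological replicates. The labels do not say how many plants went into a sample or whether replicates were grown apart. The p-values therefore cover the spread between the samples as deposited. Each genotype is 1 line, so effects of the ssi2 mutation and of anything else that distinguishes the line from wild type cannot be told apart.

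SSI2 encodes the stearoyl-acyl carrier protein desaturase of the plastid, which turns stearic acid into oleic acid. Loss of the enzyme lowers oleic acid and is known for small plants with spontaneous leaf lesions, salicylic acid accumulation and weakened jasmonate responses. The series is about the link from oleic acid to nitric oxide and defence. SSI2 itself was not analysed here, since no probe set named it alone, and neither were NOA1 and the nitrate reductase genes NIA1 and NIA2 or the PR1, PR2 and PR5 genes, and the genotype labels were thus not checked on the mutated gene.

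The arrays held a bright transcript of green tissue, which does not by itself single out leaves. LHCB4.2, an antenna protein of photosystem II, gave signals of 19530 to 30020 in wild type and 5043 to 8758 in ssi2. CLV3, a shoot meristem gene, stayed under 16 on all 6 arrays. Only 9 of the 65 marker genes listed for other cell types and organs were measured. The 3 stomatal genes SPCH, MUTE and FMA together gave 144 to 209 in wild type and 172 to 272 in ssi2, and none passed the test. The 3 root markers EXPA7, PYK10 and PRX72 together gave 33.1 to 86.6 in wild type and 64.4 to 340 in ssi2. The trichome marker TRY, a regulator of trichome spacing, gave 31.5, 32.4 and 14.7 in wild type and 300, 249 and 16.4 in ssi2, a log2 difference of 1.76 with no call (limma, adjusted p = 0.136) that was 2.81 without ssi2 replicate 3 (adjusted p = 0.000648). AtVEX1, a pollen marker, gave 7.38 to 46.1 in wild type and 18.7 to 45.6 in ssi2. In a principal component analysis wild type replicate 2 and ssi2 replicate 3 lay away from the remaining arrays of their genotypes, on components that carried 15.1% and 17.5% of the variance. Of the 1312 probe sets called higher, ssi2 replicate 3 was the lowest of the ssi2 arrays in 598, replicate 1 in 567 and replicate 2 in 147. Actin and GAPDH each have a first and a second set of control probe sets, and 3′ to 5′ ratios were taken from the second. For actin the ratio was 2.24 to 3.24 in wild type and 0.343 to 0.45 in ssi2. It was 0.353 to 0.791 in ssi2 act1 and 0.396 to 0.622 in ssi2 sid2, so wild type stood apart from all mutant lines. For GAPDH the ratio was 0.967 to 1.14 in wild type and 1.04 to 1.23 in ssi2. The part of the actin difference in the results below was not tested.

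In ssi2 leaves 1312 probe sets were higher than in wild type and 987 were lower, which is 5.77% and 4.34% of those tested, or 10.1% in either direction (limma on log2(signal + 16), Benjamini-Hochberg adjusted p under 0.05). With 1 probe set per gene, 655 of 13286 named genes were higher and 557 lower, or 4.93% and 4.19%, and 9.12% in either direction. These shares are the background for every group below. A log2 difference of at least 1 was reached by 1255 of the higher and 882 of the lower probe sets, and at least 3 by 237 and 68. All arrays of one genotype lay above all of the other in 1287 of the higher and 977 of the lower probe sets, and this held for 25.2% of all probe sets. Higher probe sets came from a median signal of 60.3 in wild type and reached 421 in ssi2, and lower ones went from 833 to 208. Of the higher probe sets 145 were under 16 on all 3 wild type arrays, and 22 of these were over 100 on all 3 ssi2 arrays. In the other direction 45 lower probe sets were under 16 on all 3 ssi2 arrays, and 9 of these were over 100 on all 3 wild type arrays. Without ssi2 replicate 2 the counts were 714 and 577, without wild type replicate 1 they were 869 and 630, without wild type replicate 3 there were 651 lower, and in a fit of the 6 arrays alone they were 697 and 464. Calls that were higher made up 57.1% of all calls, a share that was 44.5% with quantile normalized arrays and 34.1% with arrays centred on their medians. The median difference over all probe sets was 0.08, and -0.04 and -0.22 under those scalings.

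**Figure D1:**
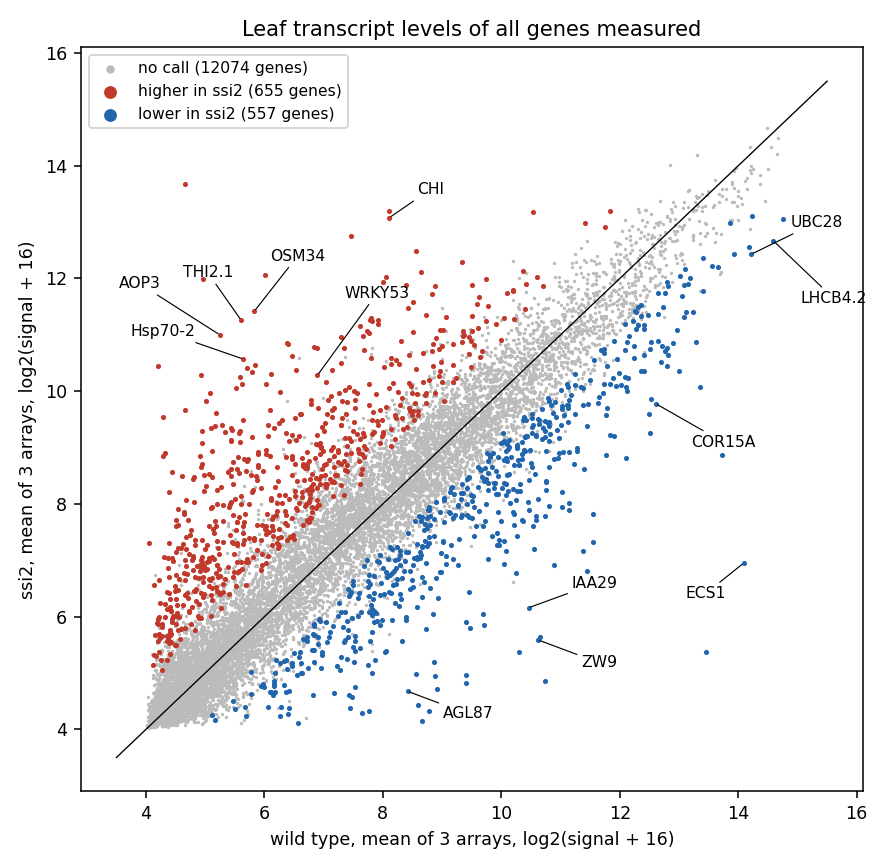
Mean level of each of the 13286 genes in wild type (x axis) and ssi2 (y axis), both as log2(signal + 16) over 3 arrays, with the line of equal levels. The 655 higher genes (red) rise mostly from low wild type levels, and the 557 lower genes (blue) include ECS1, which lies far below the line.

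Few of the changed genes carry a symbol in the annotation used. Of the 1212 called genes 1031 have a locus tag only, among them 15 of the 24 highest and 20 of the 24 lowest genes with arrays that did not overlap. Genes with a locus tag only were called about as often as all genes, at 4.62% higher and 4.15% lower, and genes with a symbol at 7.3% and 4.5%. The groups below are therefore drawn from the minority with names, 650 genes in 50 lists and 355 genes in 24 further families. Of the 650 list members 71 were higher and 34 lower, or 10.9% and 5.23%. Of 26 lists with at least 8 measured members, 18 had a larger share of higher genes than all genes together, and 13 a larger share of lower genes.

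**Figure D2:**
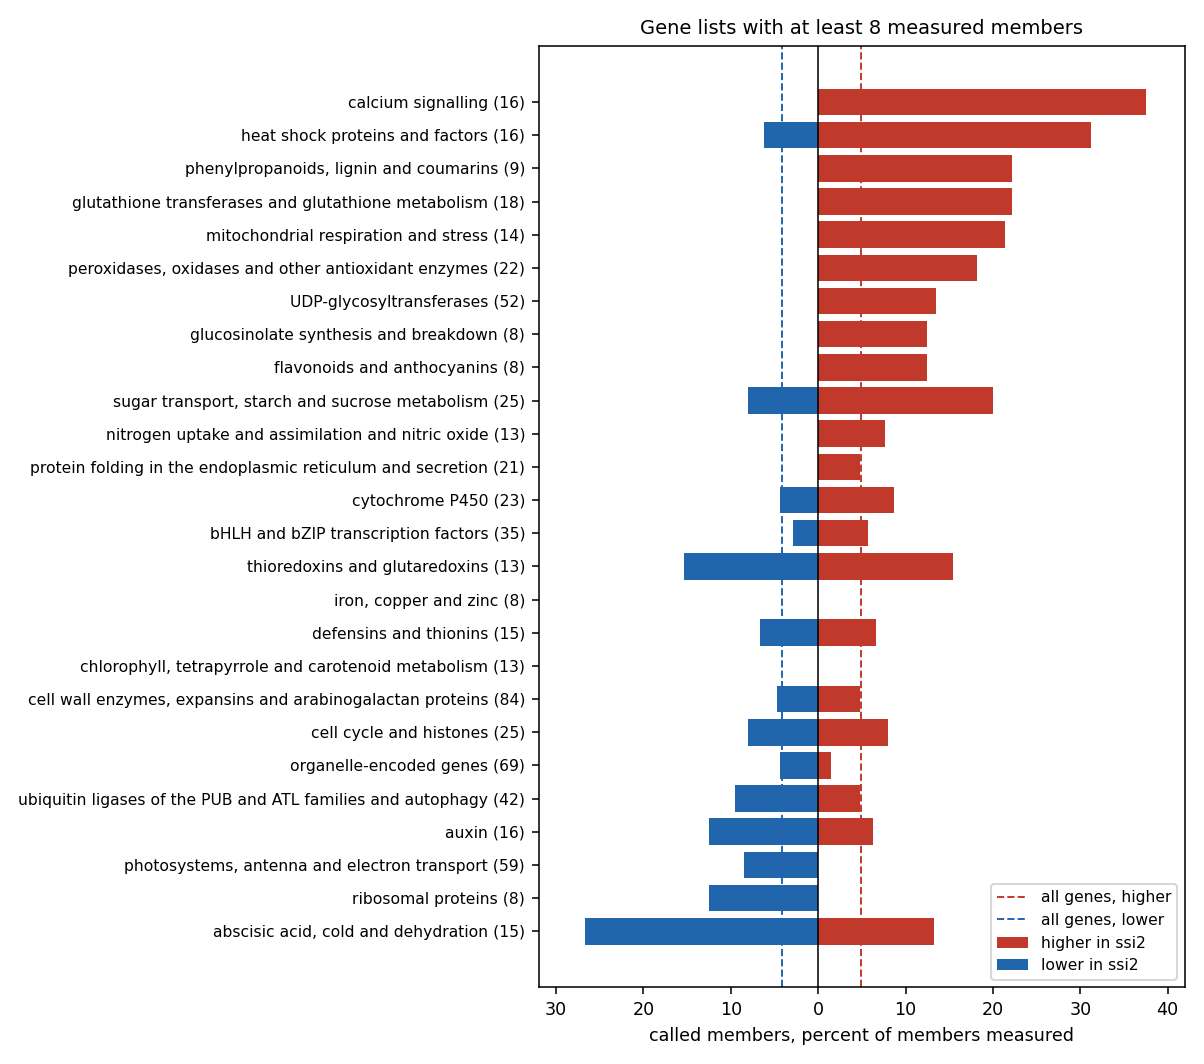
Share of the measured members of each list that were called higher (red, to the right) or lower (blue, to the left) in ssi2, for the 26 lists with at least 8 measured members, whose number stands in brackets. Dashed lines give the shares over all genes, 4.93% and 4.19%, and calcium signalling, at 37.5%, extends farthest to the right.

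Genes of pattern receptors and their signalling partners were mostly higher in ssi2, while intracellular immune receptors and U-box ligases went both ways. Pattern receptors sit in the plasma membrane, bind microbial molecules and signal through cytoplasmic kinases. Of 5 measured genes of pattern receptors and their partners 4 rose and 0 fell, against 4.93% and 4.19% of all genes. The 5 were the receptor gene EFR, the kinase gene BIK1 and the U-box ligase genes PUB22, PUB23 and PUB24. PUB23 and PUB24 are counted again among the U-box ligases below. EFR, the receptor of bacterial elongation factor Tu, gave signals of 9.99, 18.8 and 5.82 in wild type and 127, 316 and 121 in ssi2, a log2 difference of 2.79 (SE 0.337, adjusted p = 0.000366, 3 arrays per genotype here and below). Every ssi2 array was well above every wild type array. BIK1, the kinase that passes the signal of several such receptors on, went from 523, 589 and 353 to 1095, 1366 and 1199, a difference of 1.32 (SE 0.233, adjusted p = 0.00386). PUB23 and PUB24, U-box ubiquitin ligases known to dampen these responses, rose by 2.54 (SE 0.392, adjusted p = 0.00175) and 2.17 (SE 0.295, adjusted p = 0.000786), and their relative PUB22 had a difference of 0.10 and no call. Signals of PUB23 were 19.3 to 37.7 in wild type and 134 to 334 in ssi2. Of the 9 measured U-box ligases, PUB23 and PUB24 were higher and PUB25 was lower, with 303, 378 and 331 in wild type and 119, 62.5 and 53.4 in ssi2 (difference -1.96, SE 0.316, adjusted p = 0.00222). The 2 measured receptors of the intracellular nucleotide-binding class went in opposite directions. LOV1, known for sensitivity to a fungal toxin, had signals of 2.26 to 58.4 in wild type and 159 to 399 in ssi2 (difference 2.58, SE 0.534, adjusted p = 0.00932), and its call was lost in a fit of the 6 arrays alone (adjusted p = 0.0572). CSA1 had 84.6 to 175 in wild type and 3.95 to 20.6 in ssi2 (difference -2.54, SE 0.306, adjusted p = 0.000366).

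Senescence genes were higher as well, and so were 3 of 7 measured WRKY genes, among them the senescence genes WRKY6 and WRKY53. WRKY proteins are plant transcription factors that act in defence and leaf ageing. All 5 measured senescence genes rose, and 4 of them kept the call without any single array. WRKY6 was at 4.72, 52.8 and 24.9 in wild type and at 642, 875 and 513 in ssi2, a difference of 4.13 (SE 0.468, adjusted p = 0.000249). WRKY53 was at 93.3, 147 and 78.2 and at 1434, 1154 and 1108 (difference 3.38, SE 0.34, adjusted p = 0.000123). WRKY47 was also higher among the 7 measured WRKY genes, at 1.61 (SE 0.296, adjusted p = 0.00475), and it lost the call in a fit of the 6 arrays alone (0.0502). WRKY22, WRKY42, ZAP1 and WRKY20 lay between -0.34 and 0.71 with no call. YLS5, a gene named for its transcripts in yellow leaves, had closely grouped arrays, with a lowest signal of 182 in wild type and signals of 2434, 2554 and 2375 in ssi2 (difference 3.48, SE 0.259, adjusted p = 2.09e-05). SAG101, a partner of the immune regulator EDS1, had 91.1, 105 and 58.7 against 276, 603 and 488 (difference 2.18, SE 0.303, adjusted p = 0.000895). SAG29, a sugar transporter of senescing leaves also known as SWEET15, had 3.69 to 16.6 in wild type and 212, 195 and 28.2 in ssi2. Its difference of 2.35 (adjusted p = 0.0167) lost the call without wild type replicate 3, ssi2 replicate 1 or ssi2 replicate 2 (0.051, 0.0636 and 0.0832) and in a fit of the 6 arrays alone (0.0883).

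Of 5 measured genes of salicylic acid synthesis, regulation and response 3 rose and 0 fell. GRX480, a glutaredoxin induced by salicylic acid that binds TGA factors, had 33.5, 87.6 and 24.3 in wild type and 501, 466 and 243 in ssi2 (difference 2.76, SE 0.41, adjusted p = 0.0014). SAG101, given above, is counted in this list too. UGT76B1, a glucosyltransferase that inactivates salicylic acid and a related signal, had 3.91, 49.7 and 2.92 against 77.4, 151 and 95 (difference 2.04, SE 0.477, adjusted p = 0.0181). Its call was lost with wild type replicate 1 or 3 removed or with ssi2 replicate 2 removed (0.0774, 0.0756 and 0.0853), in a fit of the 6 arrays alone (0.0755) and at a pseudocount of 1 (0.0532). UGT74F1, which also glucosylates salicylic acid, had a difference of -0.50, and the methyltransferase gene BSMT1 one of 1.44, neither with a call. Jasmonate genes were hardly represented. Of 4 measured, the acyl-CoA ligase gene OPCL1 passed the test at 1.49 (adjusted p = 0.0265), but not with wild type replicate 2 or 3 removed or with ssi2 replicate 1 or 2 removed (0.0645, 0.0925, 0.0797 and 0.101), in a fit of the 6 arrays alone (0.057) or at a pseudocount of 1 (0.0508).

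Secreted antimicrobial proteins moved in both directions. THI2.1, a thionin, which is a small peptide that damages microbial membranes, had 34.4, 21.3 and 45.3 in wild type and 6065, 2398 and 985 in ssi2. OSM34, an osmotin of the pathogenesis-related class, had 5.94, 375 and 5.44 against 1635, 3111 and 3988 (difference 5.59, SE 0.896, adjusted p = 0.00218), and wild type replicate 2 was far above the others of its genotype. The same array was highest for the chitinase gene CHI, with 166, 1129 and 85.3 in wild type and 8122, 9265 and 8646 in ssi2 (difference 4.97, SE 1.03, adjusted p = 0.00944). CHI and OSM34 were the 2 members counted in their list. AT2G43580, AT2G43590, AT2G43610 and AT2G43620, also named for that list by locus tag, were measured but not counted in it. Of these AT2G43590 was lower, at -1.38 (SE 0.315, adjusted p = 0.0158). AT2G43580, AT2G43610 and AT2G43620 had -0.72, 0.51 and 1.52 with no call. Of 15 defensin and thionin genes only THI2.1 rose (difference 5.65, SE 0.542, adjusted p = 8.99e-05), and 1 gene fell. This was the jasmonate-responsive defensin gene PDF1.2b, with 801, 6448 and 937 against 395, 101 and 209, a difference of -2.96 (adjusted p = 0.0406). The call of PDF1.2b was lost without wild type replicate 2 or 3 (0.0899 and 0.0521), ssi2 replicate 2 or 3 (0.162 and 0.0769), any ssi2 act1 array (0.0533, 0.0559 and 0.0582) or ssi2 sid2 replicate 1 (0.0597), in a fit of the 6 arrays alone (0.101), when the 2 arrays that stood apart were both dropped (0.126) and at pseudocounts of 1 and 64 (0.0577 and 0.0703). Its close relative PDF1.2 had -3.59 and no call (adjusted p = 0.0678), and probe sets of such similar genes may share signal. The thionin gene THI2.2 had -1.25 and no call. Among 10 subtilases, secreted proteases, 2 rose. SBT3.3, tied to immune priming, had 7.03 to 63.4 in wild type and 197 to 288 in ssi2 (difference 2.81, SE 0.51, adjusted p = 0.00447), and SBT3.5 had 73.6 to 220 and 857 to 2117 (difference 3.23, SE 0.384, adjusted p = 0.000333).

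**Figure D3:**
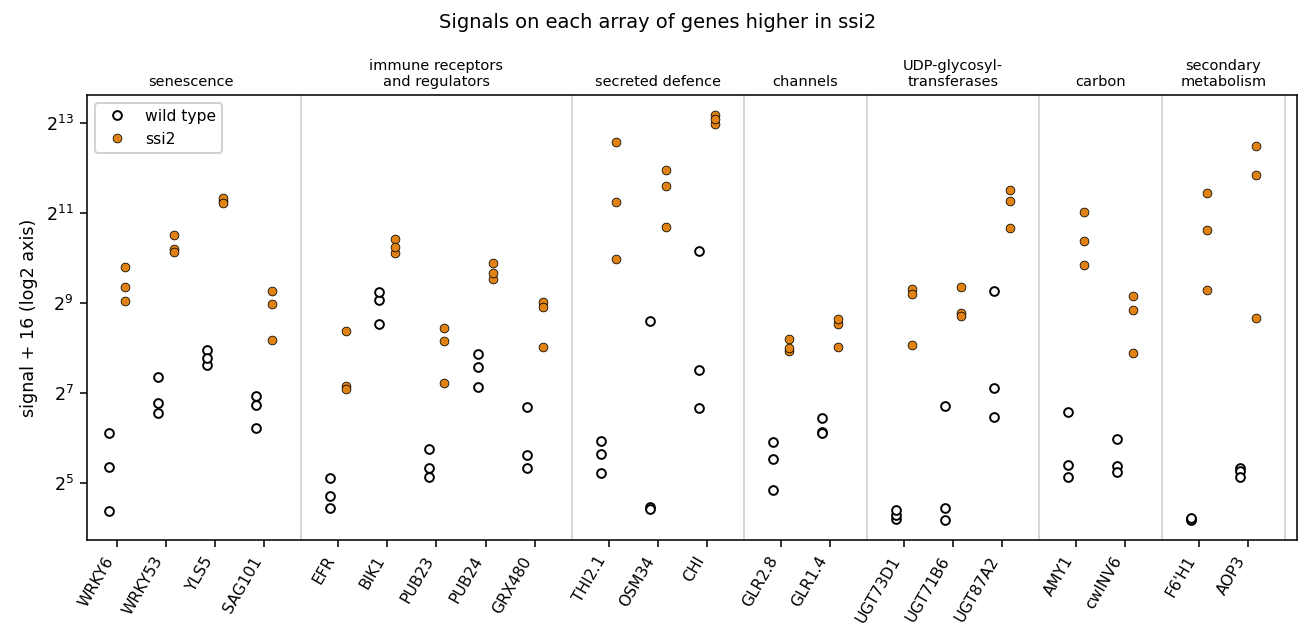
Signal plus 16 on a log2 axis for genes higher in ssi2, with 1 point per array, wild type in white and ssi2 in orange. In each gene every ssi2 point lies above every wild type point, and 1 wild type array stands high for OSM34, CHI, UGT71B6 and UGT87A2.

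Calcium channels and calcium sensors were among the groups with the largest share of higher genes. Of 16 measured calcium signalling genes 6 rose, or 37.5%, and 0 fell, with a median difference of 0.96 against 0.05 over all genes. Glutamate receptor-like proteins are cation channels of the membrane that open to amino acids, and 4 of the 8 measured rose. These 4 are the same calls as 4 of the 6 higher calcium signalling genes. All 4 belonged to the first and second clades of the family: GLR2.8 at 2.61 (SE 0.295, adjusted p = 0.000249), GLR1.4 at 2.18 (SE 0.335, adjusted p = 0.00171), ATGLR1.2 at 1.63 (SE 0.274, adjusted p = 0.00289) and GLR2.7 at 1.62 (SE 0.313, adjusted p = 0.00626). Signals of GLR2.8 were 12.7, 30.4 and 44.5 in wild type and 228, 276 and 240 in ssi2. GLR2.9 had 0.93 with no call, and the members of another clade, GLR3.3, GLR3.5 and GLR3.6 had 0.52, -0.09 and -0.43 with no call; the difference between the clades was not tested. GLR2.7 and GLR2.8 are neighbours in tandem by their locus tags, so their probe sets may see similar sequences. The calmodulin-like sensor CML37 had 1.96, 34.7 and 2.26 in wild type and 326, 645 and 70.4 in ssi2 (difference 3.40, SE 0.639, adjusted p = 0.00537). CML38 had a difference of 1.81 (adjusted p = 0.0225), and CML41, with 2.48, did not pass (adjusted p = 0.0716). With only the 6 arrays compared, the calls of CML37 (0.0536), CML38 (0.0912) and GLR2.7 (0.0625) were lost, and that of CML38 also with wild type replicate 1 or 3 removed or with ssi2 replicate 1 or 2 removed (0.0726, 0.0863, 0.0712 and 0.103) and after quantile normalization (0.0504).

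UDP-glycosyltransferases, which attach sugars to hormones, flavonoids and foreign compounds, were called higher in 7 of 52 measured members and lower in 0, or 13.5% against 4.93% of all genes. Without ssi2 replicate 3 the number was 12. UGT73D1 was at 2.32, 3.48 and 5.02 in wild type and at 253, 615 and 572 in ssi2, from the floor of the scale to clear signals (difference 4.57, SE 0.307, adjusted p = 1.05e-05). UGT71B6, known to glucosylate abscisic acid, was at 2.16, 88.6 and 5.83 and at 423, 402 and 638 (difference 3.83, SE 0.617, adjusted p = 0.00222). UGT87A2 rose by 3.54 (SE 0.595, adjusted p = 0.00289), UGT71B5 by 2.02 (SE 0.316, adjusted p = 0.00188) and UGT72B3 by 1.65 (SE 0.254, adjusted p = 0.00169). UGT73B5 had 3.31 (adjusted p = 0.0208) and lost the call without wild type replicate 1 or 3 (0.0825 and 0.084) or ssi2 replicate 1 or 2 (0.0532 and 0.0971). Glutathione transferases of the tau class, which also act in detoxification, rose in 3 of 11. GSTU15 went from 0.785 to 4.11 in wild type to 28.7, 63.7 and 52.6 in ssi2 (difference 1.77, SE 0.262, adjusted p = 0.00137), and GSTU27 from 459 to 912 to between 1891 and 2422 (difference 1.56, SE 0.308, adjusted p = 0.00699). The other called member was GSTU28 at 0.88 (adjusted p = 0.0374), which lost its call in 6 of the fits without a single array, with the highest adjusted p of these, 0.136, without wild type replicate 3. Its call was also lost after quantile normalization (0.0762) or median centring (0.242) and in a fit of the 6 arrays alone (0.129).

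Enzymes of defence compounds showed some of the steepest rises, in lists where most members had no call. F6'H1 (AT3G13610), the feruloyl-CoA hydroxylase of coumarin synthesis, was at 2.27, 2.08 and 2.55 in wild type, the floor of the scale, and at 1558, 2760 and 606 in ssi2. It and the beta-glucosidase gene PYK10 were the 2 called among 9 phenylpropanoid genes. PYK10, also on the list of root markers, had 21.5, 27.2 and 38 in wild type and 308, 214 and 37.2 in ssi2, so that ssi2 replicate 3 lay within wild type (difference 1.84, adjusted p = 0.0448). Its call was lost without each single array except ssi2 replicate 3, with the highest adjusted p, 0.171, without ssi2 replicate 2. The difference was 1.56 without ssi2 replicate 2 and 2.62 without ssi2 replicate 3. The caffeoyl-CoA methyltransferase gene CCOAMT had 2.95 with overlapping arrays and no call (adjusted p = 0.0815). AOP3, which modifies the side chain of glucosinolates, the sulphur-rich defence compounds of the family, was at 24.5, 22.5 and 19 in wild type and at 5704, 3667 and 393 in ssi2, and was the only called gene among 8 of glucosinolate metabolism. CYP71B6, a P450 that acts on indolic compounds, had 890 to 1018 against 2073 to 2696 (difference 1.29, SE 0.255, adjusted p = 0.00727). All 8 measured flavonoid genes had positive differences, but only the chalcone isomerase-like gene CHIL passed, at 3.73 (adjusted p = 0.0319), with 838, 780 and 80.1 on the ssi2 arrays. The call of CHIL was lost without any single array of wild type (0.102, 0.0664 and 0.0534) or without ssi2 replicate 1 or 2 (0.11 and 0.134), in a fit of the 6 arrays alone (0.0537) and at a pseudocount of 64 (0.0959), and without ssi2 replicate 3 the list held 4 calls. Of 22 beta-glucosidases 4 rose and 1 fell, with BGLU31 at 2.66 (SE 0.44, adjusted p = 0.0026) and BGLU25 at 2.12 (SE 0.36, adjusted p = 0.00311) as those that kept the call without any single array. The count of higher beta-glucosidases was 2 without wild type replicate 1 or ssi2 replicate 2.

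Antioxidant enzymes rose in 4 of 22 cases and fell in 0. MSRB9, a methionine sulfoxide reductase that repairs oxidised proteins, was at 23.3, 38 and 2.44 in wild type and at 1148, 1181 and 705 in ssi2 (difference 4.88, SE 0.578, adjusted p = 0.00033). MSRB3, MSRB5 and MSRB6 of the same family lay between -0.99 and -0.12 with no call. Among the class III peroxidases, which act in the cell wall, PRX71 (AT5G64120) rose by 1.68 (SE 0.337, adjusted p = 0.00775), from 155 to 314 in wild type to between 683 and 757. PRX52 had 2.24 and Prx37 1.65, and both lost the call without ssi2 replicate 2 (0.0564 and 0.0579), PRX52 also without wild type replicate 1 or 3 (0.0525 and 0.0505) and in a fit of the 6 arrays alone (0.0856), and Prx37 at a pseudocount of 1 (0.0802). GR1, a glutathione reductase, had 407 to 656 in wild type and 2418, 3864 and 1051 in ssi2, a difference of 2.07 (adjusted p = 0.0106) that lost its call without ssi2 replicate 2 (0.0503) and in a fit of the 6 arrays alone (0.0592). Mitochondrial genes were called higher in 3 of 14. The one that kept its call without any single array was NDB2, an NADH dehydrogenase of the alternative respiratory chain, with 281, 504 and 254 against 2068, 1729 and 1133 (difference 2.22, SE 0.341, adjusted p = 0.00171). The related NDB1, NDB3 and NDB4 lay between 0.02 and 0.44 with no call.

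Chaperones were called higher in 5 of 16 and lower in 1, with 3 higher without ssi2 replicate 2 and 2 lower without wild type replicate 2, and 2 higher in a fit of the 6 arrays alone. Hsp70-2, a cytosolic heat shock protein, had signals of 43.9, 28.5 and 30.5 in wild type and 2880, 1777 and 663 in ssi2 (difference 4.93, SE 0.56, adjusted p = 0.00025). Its cochaperone Hop3 went from 2.37 to 3.54 to 60.7, 112 and 27.9 (difference 2.00, SE 0.35, adjusted p = 0.00369), while Hop1 and Hop2 had 0.61 and 0.48 with no call. Subunits of the chloroplast chaperonin were Cpn60beta2 at 3.04 (adjusted p = 0.012), Cpn60beta3 at 1.33 (SE 0.255, adjusted p = 0.00596) and Cpn60beta4 at -0.09 with no call. The calls of Cpn60beta2 and Cpn60beta3 were lost in a fit of the 6 arrays alone (0.0653 and 0.0547), and that of Cpn60beta2 also without ssi2 replicate 2 (0.0577). ATJ1, a mitochondrial DnaJ chaperone, had a difference of 1.29 (adjusted p = 0.0425) that lost its call in 9 of the 12 fits without a single array, with the highest adjusted p, 0.141, without wild type replicate 3, and also with the replicate number as a block (0.0734) and after either quantile normalization (0.0605) or centring on the medians (0.0743). The lower gene was Fes1B, an exchange factor of cytosolic heat shock proteins, with 1466, 730 and 1462 against 126, 186 and 418 (difference -2.35, SE 0.481, adjusted p = 0.00882). Its relatives Fes1A and Fes1C had 0.02 and -0.42 with no call. Genes of protein folding and secretion in the endoplasmic reticulum had 16 of 21 positive differences and a median of 0.67, with 1 call, SEC1B at 1.41 (adjusted p = 0.044), that was lost in 9 of the 12 fits without a single array, with the highest adjusted p, 0.154, without wild type replicate 1. SEC1B also lost its call after quantile normalization (0.0696) or median centring (0.0603) and with the replicate number as a block (0.0705).

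Carbohydrate genes were called higher in 5 of 25, or in 2 without wild type replicate 3, ssi2 replicate 1 or ssi2 replicate 2, and lower in 2, and AMY1 and cwINV6 kept their calls without any single array. AMY1, a secreted alpha-amylase, had 26, 80.1 and 18.9 in wild type and 898, 2054 and 1320 in ssi2 (difference 4.71, SE 0.635, adjusted p = 0.000728). cwINV6, named as a cell wall invertase, had 25.3, 21.8 and 47.4 against 219, 556 and 442 (difference 3.09, SE 0.414, adjusted p = 0.000682). SWEET transporters, which let sugars cross membranes, were called in both directions among 16, with SWEET1 and SAG29 higher and the vacuolar SWEET16 and SWEET17 lower. SWEET1 had a difference of 1.81, SWEET16 of -1.37 and SWEET17 of -2.09. None of these calls held without every single array: without ssi2 replicate 2 the adjusted p was 0.0698 for SWEET1, 0.0843 for SWEET16 and 0.0825 for SWEET17. The sucrose phosphate synthase gene ATSPS4F had 2.54, with 529, 655 and 94.4 on the ssi2 arrays, and lost the call without wild type replicate 1 or 3 (0.086 and 0.0665) or ssi2 replicate 1 or 2 (0.0808 and 0.106) or in a fit of the 6 arrays alone (0.084). The nitrate transporter gene NPF3.1 (AT1G68570) rose from 613 to 653 in wild type to between 1985 and 2319, a difference of 1.72 (SE 0.331, adjusted p = 0.00624), as the only called gene among 13 of nitrogen uptake and assimilation.

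A minority of the cold and dehydration genes passed the test, more of them as lower than as higher. Many genes of this list are induced by cold, drought or abscisic acid, and products of some protect membranes and proteins from water loss. The list also takes in regulators such as XERICO and STZ. Of 15 measured, 4 fell and 2 rose, or 26.7% lower against 4.19% of all genes, with a median difference of -0.56, and 9 had no call. COR15A, which protects chloroplast membranes during freezing, had signals of 5665, 8780 and 4833 in wild type and 1126, 851 and 665 in ssi2. COR15B, its tandem copy, had 7152, 7552 and 6937 against 1191, 1382 and 2379 (difference -2.18, SE 0.328, adjusted p = 0.00151), and probe sets of such copies may share signal. XERICO, a RING protein that raises abscisic acid levels, had 2724, 5157 and 3146 against 661, 732 and 1131 (difference -2.09, SE 0.348, adjusted p = 0.00273). COR47 had -1.61 and COR27 -1.19 with no call. AtLEA4-1 had -2.81 (adjusted p = 0.0251), a call that dropped out with either ssi2 replicate 1 or ssi2 replicate 3 removed (0.0572 and 0.0771) or both arrays that stood apart (0.0703), in a fit of the 6 arrays alone (0.105) and at a pseudocount of 64 (0.0657). The zinc finger repressor STZ rose, from 157, 658 and 107 to 3862, 2974 and 1262 (difference 3.34, SE 0.611, adjusted p = 0.00468). The other higher member was LEA27 (AT2G46140), with a difference of 1.73 (adjusted p = 0.0376) that lost its call in 8 of the 12 fits without a single array, with the highest adjusted p of these, 0.136, without ssi2 replicate 2. LEA27 also lost its call after quantile normalization (0.0848) or median centring (0.0941) and in a fit of the 6 arrays alone (0.0959).

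Of 16 auxin genes 2 fell and 1 rose. IAA29, a repressor of auxin response whose transcript is known to follow light and temperature, had 1647, 951 and 1726 in wild type and 44.7, 51.3 and 73 in ssi2. IAA34 of the same family had 155, 131 and 88.1 against 36.9, 29.5 and 44.8 (difference -1.39, SE 0.257, adjusted p = 0.00501). The other measured IAA members, IAA18, IAA20, IAA30, IAA31 and IAA33, lay between -0.69 and -0.34 with no call. GH3.3, which couples auxin to amino acids, had 633, 133 and 476 against 1480, 3538 and 5546 (difference 3.09, SE 0.657, adjusted p = 0.0107), and lost its call without both arrays that stood apart (0.0564). Among light signalling genes FHL, a carrier of phytochrome A into the nucleus, fell from 262, 410 and 179 to 39.9, 58.1 and 40.7 (difference -2.21, SE 0.3, adjusted p = 0.000781). The bZIP gene HYH had 3.19 (adjusted p = 0.0129), and its call was lost without wild type replicate 1 or 3 (0.0599 and 0.0508) or ssi2 replicate 1 or 2 (0.0503 and 0.0673) and in a fit of the 6 arrays alone (0.0746). The gibberellin receptor gene GID1B rose by 1.68 (SE 0.348, adjusted p = 0.00942), while GID1A and GID1C had -0.43 and -0.20 with no call, and its call was lost in a fit of the 6 arrays alone (0.0632).

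**Figure D4:**
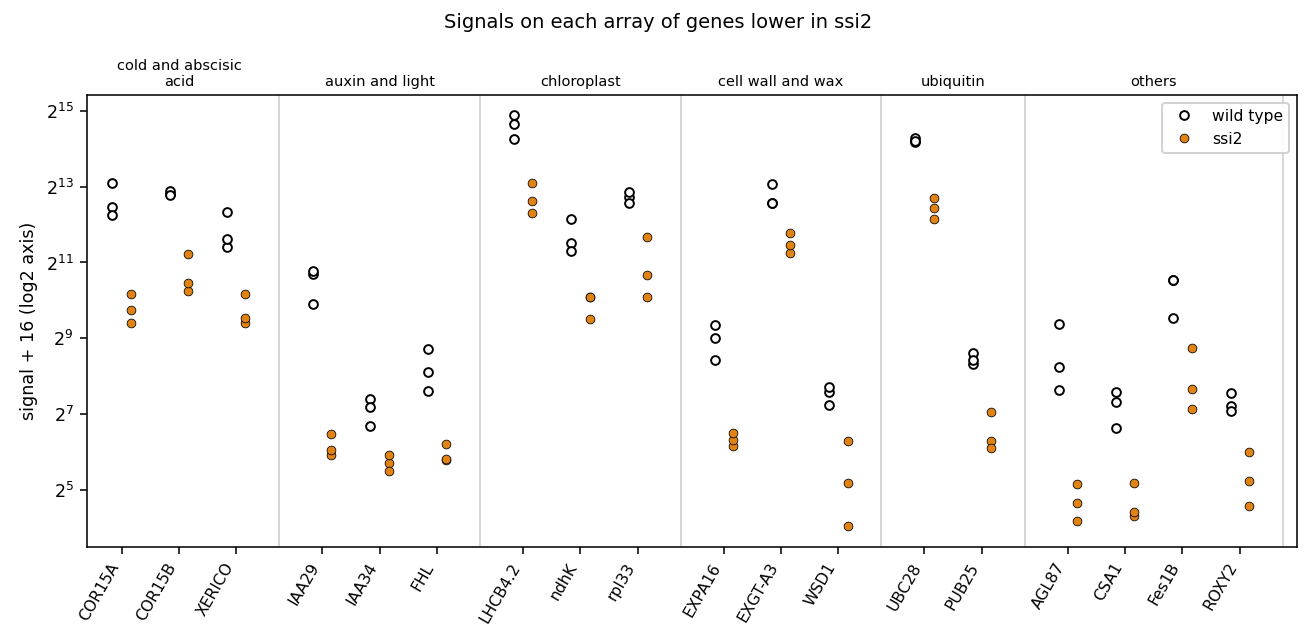
Signal plus 16 on a log2 axis for genes lower in ssi2, with 1 point per array, wild type in white and ssi2 in orange. In each gene every ssi2 point lies below every wild type point, over levels that span UBC28 and LHCB4.2 at the top and AGL87 and CSA1 near the floor in ssi2.

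Photosynthesis genes had mostly small negative differences. Of 59 measured genes of the photosystems, antenna and electron transport 51 were lower in the mean, 5 passed the test as lower, or 8.47%, and 0 as higher. The median difference was -0.44, against 0.05 over all genes, and after median centring 10 were called lower. The 42 organelle-encoded genes among the 59 were negative in 37, with a median of -0.38 and 2 lower calls. The 17 nuclear genes were negative in 14, with a median of -0.57 and 3 lower calls. These organelle-encoded genes, ndhK and ndhJ included, are counted again among the organelle genes below. Photosystem II genes were negative in 18 of 19, with a median of -0.68, ATP synthase genes in 8 of 8, with a median of -0.45, and NDH complex genes in 9 of 12, with a median of -0.42. Photosystem I genes were negative in 6 of 8, with a median of -0.28. LHCB4.2, whose signals are given above, had a difference of -1.91 (SE 0.299, adjusted p = 0.00189), and its paralogue LHCB4.1 one of -0.53 with no call. Another antenna paralogue, LHCB4.3, went the other way with 252, 209 and 170 in wild type and 4456, 2709 and 330 in ssi2, a difference of 2.85 that did not pass (SE 0.858, adjusted p = 0.0571). The plastid gene ndhK of the NDH complex, which returns electrons to the carriers between the photosystems, had 2920, 4480 and 2505 against 712, 1065 and 1080 (difference -1.76, SE 0.33, adjusted p = 0.00537). The other called genes were ndhJ at -1.24, LIL3:2 at -1.001 and PSB27 at -0.88, and without ssi2 replicate 2 their adjusted p was 0.0873, 0.0501 and 0.107. Without wild type replicate 1 or ssi2 replicate 2 the count of lower genes was 2, and without wild type replicate 3 or ssi2 replicate 3 it was 3.

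**Figure D5:**
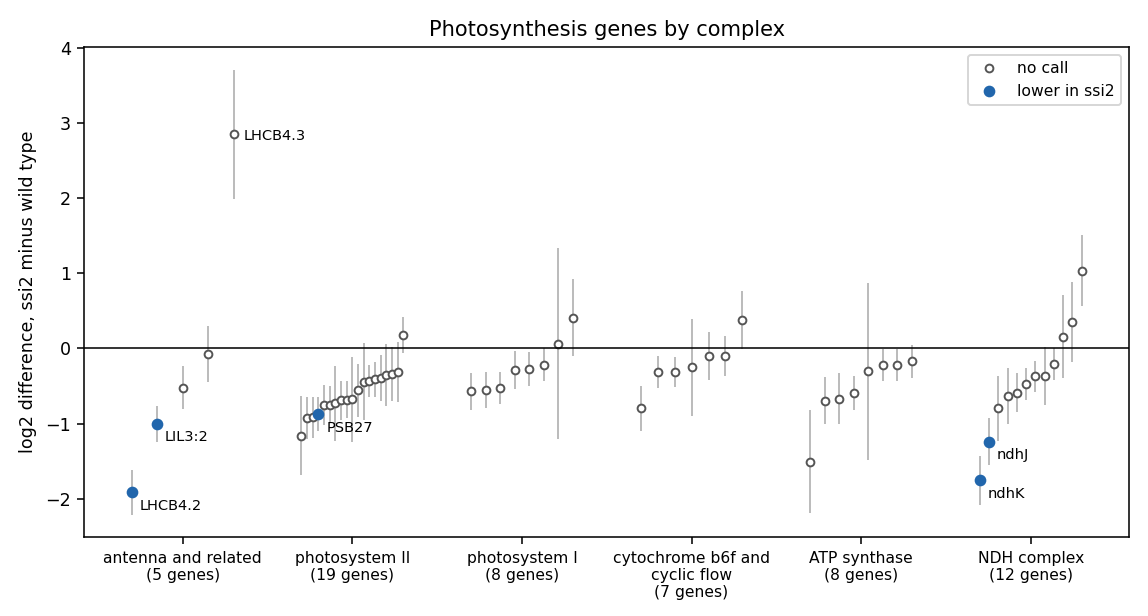
Difference between ssi2 and wild type (log2) of each of the 59 photosynthesis genes, with bars for the standard error, sorted within complexes that were grouped after the values had been seen. Most points lie just under 0, the 5 filled points passed the test as lower, and LHCB4.3 at 2.85 did not pass.

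Of 69 genes encoded in the plastid or mitochondrial genome 3 were lower and 1 higher, or 4.35% and 1.45%. Over all genes these shares were 4.19% and 4.93%, so lower calls came at close to the background rate and higher calls below it. The 15 ribosomal protein genes among them had a median of 0.17, the 4 RNA polymerase subunits one of 0.24 and the other 50 genes one of -0.39, a grouping made after the values had been seen. The lower ribosomal gene rpl33 had signals of 6692, 6088 and 7442 in wild type and 1612, 3222 and 1073 in ssi2 (difference -1.91, SE 0.367, adjusted p = 0.00615). The higher gene rps3 had 1.57 (adjusted p = 0.0297), which no longer passed with any of the wild type arrays removed (0.0579, 0.0664 and 0.0795) or with ssi2 replicate 2 or 3 removed (0.129 and 0.0815). In bulk leaf RNA, fewer cells of a type and less RNA per cell cannot be told apart for these and the other lower genes.

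Cell wall genes, the largest list, were called at close to the background rate in this fit, with 4 higher and 4 lower of 84, or 4.76% each. The balance depended on the scaling and on single arrays, with 4 higher and 11 lower after median centring, and 6 higher and 14 lower without both arrays that stood apart. EXPA16, an expansin, which loosens the wall during growth, had 500, 330 and 644 in wild type and 56.2, 64.5 and 74.9 in ssi2 (difference -2.60, SE 0.32, adjusted p = 0.000401). It was the only called gene of 19 expansins, of which 13 had negative differences, and without wild type replicate 2 there were 5 called lower. EXGT-A3, a xyloglucan endotransglucosylase, had 6040 to 8518 against 2401 to 3495 (difference -1.24, SE 0.234, adjusted p = 0.00543), and its relative XTH29 had 6.02 to 47.1 against 132 to 274 (difference 2.40, SE 0.465, adjusted p = 0.00642). EXGT-A3 lost its call in a fit of the 6 arrays alone (0.0526). ATPMEPCRB, a pectin methylesterase, had 88, 6.8 and 45.1 against 492, 518 and 306 (difference 3.08, SE 0.545, adjusted p = 0.00386). Without wild type replicate 2 the list held 12 lower genes, and without wild type replicate 1 or 3 it held 2. WSD1, a wax ester synthase of the stem and leaf surface, fell from 135 to 194 in wild type to 20.7, 63.3 and 0.648 (difference -2.32, SE 0.468, adjusted p = 0.00798), a call lost in a fit of the 6 arrays alone (0.0579) and at a pseudocount of 1 (0.0682).

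Ubiquitin-conjugating enzymes, which hand ubiquitin to ligases, were called lower in 3 of 13 and higher in 0, with 12 of 13 differences at or below 0. UBC28 was among the brightest transcripts, with 18470, 19990 and 18620 in wild type and 5510, 4536 and 6641 in ssi2 (difference -1.79, SE 0.256, adjusted p = 0.0011). UBC37 had -1.23 and UBC18 -0.98. Both lost the call without wild type replicate 1, any single ssi2 array or ssi2 sid2 replicate 3, so that only 1 of the 3 calls was left. Both also lost it with the replicate number as a block (0.0523 and 0.0628) and in a fit of the 6 arrays alone (0.101 and 0.098). Of 42 measured MADS-box factors 21 had median signals under 16 in both genotypes. Of the 42, 3 were lower and 2 higher, or 7.14% and 4.76%, against 4.19% and 4.93% of all genes. The higher ones were AGL18 at 1.30 (adjusted p = 0.0148) and AGL24 at 1.17 (adjusted p = 0.0339), and neither passed without wild type replicate 1 (0.0591 and 0.0534) or replicate 3 (0.0641 and 0.0622), after quantile normalization (0.0756 and 0.113) or median centring (0.0866 and 0.13), or in a fit of the 6 arrays alone (0.095 and 0.106). AGL24 also lost its call with wild type replicate 2 removed (0.0849) or with ssi2 replicate 1 or 2 removed (0.0725 and 0.145), with the replicate number as a block (0.0634) and at a pseudocount of 1 (0.0634). AGL87 was at 288, 182 and 645 in wild type and at 2.27, 20.1 and 9.29 in ssi2 (difference -3.74, SE 0.481, adjusted p = 0.000521), and AGL19, known to promote flowering, at 149 to 478 and 26 to 61.6 (difference -1.98, SE 0.419, adjusted p = 0.0103). AGL19 lost its call in a fit of the 6 arrays alone (0.0683). The remaining lower gene, AGL96 at -0.96, lost its call without wild type replicate 1 or 3 (0.118 and 0.1). Its call was also lost without ssi2 replicate 1 or 2 (0.111 and 0.115) and in a fit of the 6 arrays alone (0.0895). The glutaredoxin gene ROXY2 fell from 120 to 173 to 48.9, 22.2 and 8.08 (difference -2.002, SE 0.421, adjusted p = 0.0101), a call lost without both arrays that stood apart (0.0549).

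In 13 of the 50 lists no member was called. Among them were 13 genes of chlorophyll, tetrapyrrole and carotenoid metabolism, between -1.43 and 1.09, and 5 Calvin cycle and photorespiration genes, between -0.83 and 1.17. The list of plastid fatty acid and glycerolipid synthesis held 3 measured genes. FATB at -0.76 and FaTA at -0.21 belong to the plastid pathway around the SSI2 step. GPDHC1, at -0.97, encodes a cytosolic glycerol-3-phosphate dehydrogenase. Of 8 genes of iron, copper and zinc handling the largest difference was that of BHLH101, a factor of iron uptake, at 2.67 (SE 0.944, adjusted p = 0.102). The 6 measured cytokinin response regulators lay between -0.70 and 0.81.

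Changed genes were spread over all chromosomes. The share called higher ran from 3.78% on chromosome 2 to 5.48% on chromosome 1, and the share called lower from 3.46% on chromosome 2 to 5.01% on chromosome 4. Of the 50 measured genes closest to SSI2 in gene order, 25 on each side, 2 were higher and 3 lower, or 4% and 6%. The higher genes were CHI and AT2G44010, at 2.58 (SE 0.688, adjusted p = 0.0336), and the lower ones were AT2G43535 at -2.53, AT2G43550 at -2.65 and AT2G43590 at -1.38. CHI and the 3 lower genes stand within a short run of locus tags on the same side of SSI2. Among 262 windows of 50 neighbouring measured genes the median was 2 lower and 2 higher genes, and the highest count in a window was 8 in either direction.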

How the data were processed

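RNA of 12 leaf samples, 3 of each of 4 genotypes, was measured on Affymetrix arrays. The authors deposited a linear signal intensity per probe set, made with Expression Console 1.0 according to the submitters' processing notes. How probes were summarised and arrays scaled was not stated in the labels or headers. The trimmed mean, a mean without the highest and lowest signals, was 496 to 498 on all 12 arrays. Array medians were 95.8 to 158, and 16.9% to 21.8% of the probe sets on an array were under 16. For arrays the number of samples limits the precision.

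The 64 control probe sets of 22810 were set aside. Signals were transformed to log2(signal + 16), which understates changes of dim genes. Limma 3.58.1 (R 4.3.3) was fitted to the 12 arrays, each genotype having its own mean, and ssi2 minus wild type was tested (eBayes, two-sided). Benjamini-Hochberg adjustment ran over the 22746 probe sets, with calls at an adjusted p under 0.05. The fit was tested on simulated data.

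Gene names came from the platform annotation and a RefSeq table of assembly TAIR10.1, used for names and gene order. Exactly 1 gene was listed for 13513 probe sets, more than 1 for 503 and no gene for 8794, and 13436 of the first matched the table. The probe set with the highest mean stands for a gene that has several. The comparison, lists and families were chosen with earlier results of these data known, and the 24 families after their values had been seen. Lists defined by gene descriptions were not used, since the table holds none, and symbols that denote another gene were dropped. Genes to name were the 24 highest and 24 lowest called genes whose arrays do not overlap, given as counts where they have a locus tag only, and up to 5 called members per list and direction or, where none was called, the member with the largest difference. Uncalled relatives of a named gene, and genes beside SSI2, were named after their values had been seen.

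Results were recomputed with quantile normalization, with median centring, without the dimmest 40% of probe sets, with the replicate number as a block, on the 6 arrays alone, with array weights, with a trended robust prior, at pseudocounts of 1 and 64, with probe sets of a gene averaged, without each array in turn and, chosen after seeing the data, without wild type replicate 2 and ssi2 replicate 3.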

Additional observations from a re-analysis of the deposited data

Results flagged for a closer look

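Control probe sets of plant genes, which the comparison leaves out, also differed. Of 19 such probe sets, 9 had all 3 ssi2 arrays above all 3 wild type arrays and 4 had them below. In either direction 13 of 19 did not overlap, against 25.2% of the non-control probe sets. The log2 differences, given with no test, were 0.78, 0.88 and 0.85 for the first set of GAPDH probe sets (3′, 5′ and middle) and 1.04 and 0.93 for the 3′ and 5′ probe sets of the second. They were 0.47 and 1.37 for the 5′ and middle polyubiquitin probe sets, 0.28 for a further 5′ polyubiquitin probe set and 1.21 for 5S rRNA. In the other direction, the 3′ actin probe set of the second set had 10950, 7322 and 11720 in wild type and 1202, 1067 and 1390 in ssi2, a difference of -2.997, while its 5′ probe set had 4881, 2258 and 4826 against 2746, 3108 and 3088, a difference of -0.34. On the arrays of the double mutants that 3′ probe set lay between 1231 and 1983. The others that were lower were the 3′ actin probe set of the first set, with a difference of -2.70, the middle actin probe set of the second, with -1.03, and the control U12639, with -0.81.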

How the results depend on the processing

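Over the 23 alternatives 90 of the 163 called genes named by rule kept direction and call wherever they were tested, 103 kept the call without any single array, and none changed sign. On the 6 arrays alone 64 of them lost the call and 99 kept it, while 14 lost it after quantile normalization, 16 after median centring and 17 with the replicate number as a block. Without a single array 108 to 154 stayed called. The counts of higher and lower probe sets were 697 and 464 with only the 6 arrays, 4410 and 3310 with array weights, and 891 and 1719 after median centring. Without a single array they ranged from 714 to 1515 and from 577 to 1327. Called members of the lists numbered 105, against 58 with only the 6 arrays, 270 with array weights and 64 to 122 without a single array. Without both arrays that stood apart the probe set counts were 1768 and 1393. The cause of these shifts was not tested. With the replicate number as a block 1212 and 859 probe sets were called. Deviations of wild type and ssi2 arrays with the same number correlated at 0.116, 0.0959 and 0.12. The numbers were not taken as pairs, because no label ties them to a shared batch and 1 of these correlations is under 0.1. Each wild type array did correlate best with its own number, which is a hint of pairing from the data. Among named genes with no call, signs turned for AT5G52050 (-0.05 in the report's fit, 0.48 with array weights, 0.21 without ssi2 replicate 3, 0.89 without both arrays that stood apart and -0.46 to 0.63 without a single array), EIN3 (-0.26, and 0.23 without ssi2 replicate 1, with -0.75 to 0.23 without a single array), AtVEX1 (-0.006 after median centring and -0.12 to 0.59 without a single array) and CLV3 (-0.029 after quantile normalization, -0.30 after median centring, -0.018 at a pseudocount of 1, and -0.041 to 0.056 without a single array).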

Other observations

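Outside the lists, 58 called genes carried a symbol, 34 higher and 24 lower, and the ones given here were chosen after their values had been seen. RING1, a membrane ubiquitin ligase tied to cell death, had signals of 1720, 1441 and 1274 in wild type and 8364, 9938 and 9279 in ssi2 (difference 2.63, SE 0.229, adjusted p = 6.26e-05). SAL2, a phosphatase related to the regulator SAL1, had 38.2, 52.7 and 28.9 against 1165, 1581 and 1139 (difference 4.56, SE 0.441, adjusted p = 9.56e-05). PMEPCRF, a second pectin methylesterase, rose by 2.63 (SE 0.372, adjusted p = 0.00102). LPR2, a multicopper oxidase of phosphate sensing in roots, had 343, 424 and 173 against 1828, 1491 and 1057 (difference 2.21, SE 0.373, adjusted p = 0.00293). GME, an enzyme of ascorbate synthesis, had closely grouped arrays, with 3198, 3673 and 3443 against 7839, 8239 and 7236 (difference 1.17, SE 0.216, adjusted p = 0.00475). ChiC, a chitinase, rose by 1.94 (SE 0.344, adjusted p = 0.00386).

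Among lower genes outside the lists, ECS1 had 21850, 17590 and 13750 in wild type and 116, 99.2 and 107 in ssi2 (difference -7.14, SE 0.243, adjusted p = 4.48e-08). Its mean log2 level was 14.09 in wild type and 6.95 in ssi2, but 14.56 in ssi2 act1 and 14.35 in ssi2 sid2. Why ECS1 was low in only 1 of the lines with the ssi2 mutation was not tested. NGA1, a factor of leaf margin growth, had 215, 186 and 244 in wild type and 52.4, 41.1 and 67 in ssi2 (difference -1.74, SE 0.226, adjusted p = 0.000544). BLT, a gene of trichome branching, was opposite in sign to the uncalled trichome marker TRY, with 74.4, 50.7 and 77.2 against 16.4, 9.22 and 3.91 (difference -1.70, SE 0.287, adjusted p = 0.00293). ETFBETA, a subunit of the electron transfer flavoprotein of mitochondria, and ATBCAT-5, an aminotransferase of branched-chain amino acids, had -2.13 (SE 0.37, adjusted p = 0.00358) and -1.33 (SE 0.245, adjusted p = 0.00475). All genes described in this part kept their call without any single array.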
